A study of Homo sapiens with 2 samples.

Results

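Wide PROX1 peaks, those listed with a width of 160 bp or more on chromosomes 1 to 22, are 1697 of the 23450 peaks of a PROX1 chromatin immunoprecipitation and sequencing (ChIP-seq) experiment. They were selected on the listed width alone, which is the end of the peak minus its start. Width, tags (sequenced reads listed for the peak), fold over input and p-value all come from the same peak calls. Those values are therefore given as a description of the list, with no test. The cells were SW480R, a subpopulation of SW480, an established line from a human colorectal adenocarcinoma, grown with no treatment named in the labels. One library came from chromatin precipitated with a goat antibody against human PROX1, pooled from 3 independent immunoprecipitations, and 1 library came from input DNA of the same cells. No genotype change separates the libraries, and with 1 library of each kind no replicate spread could be measured. Intervals are exact (Clopper-Pearson) 95% binomial intervals that treat peaks as independent and cover counting error only. For a difference of shares the interval is Newcombe's.

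PROX1 is a homeobox transcription factor, the vertebrate relative of Drosophila Prospero, that binds DNA directly through its C-terminal domain and can activate or repress genes. It is needed for lymphatic vessels, liver and lens, and in colorectal tumours it is induced by β-catenin and TCF, the effectors of the Wnt pathway. In ChIP-seq a site appears as a pile of tags, and the width that a peak caller lists depends on its windows and merging rules as well as on how far the bound DNA extends. Chromatin here was cut with an enzymatic kit, in which a nuclease cuts mainly between nucleosomes. Peaks are given by their position on the hg18 build as the list prints it. No hg18 gene annotation or genome sequence was used here, so no gene or base sequence is assigned to a peak.

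Wide peaks made up 7.41% of the 22916 autosomal peaks (interval 7.07 to 7.75), spanned 21.7% of the base pairs covered by those peaks and held 10.1% of their tags. The 13124 peaks of 40 bp, the lowest width, made up 57.3% of the peaks, 32.0% of the covered base pairs and 57.1% of the tags. In total the wide peaks covered 356.5 kb and held 87497 tags, against 525.0 kb and 496177 tags in the 40 bp peaks. Wide peaks took a larger part of the covered sequence than of the tags, and 40 bp peaks the reverse. Covered base pairs are the sum of the widths that chose the groups, so this follows largely from the selection.

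Widths fell on a fixed grid. Every width was a multiple of 20 bp and every start lay 11 bp above a multiple of 20. Along this grid the number of peaks did not fall evenly. It dropped from 13124 at 40 bp to 374 at 80 bp, rose to 1638 at 120 bp, and dropped again to 494 at 160 bp and 217 at 180 bp. Within the wide peaks it rose once more, to 278 at 200 bp and 257 at 220 bp, before 71 at 260 bp. From 280 to 320 bp it was nearly level, at 44, 44 and 41 peaks, and 39 peaks were 360 bp or wider. The wide peaks thus begin on the falling side of one group of widths and contain a smaller group around 200 to 240 bp.

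**Figure D1:**
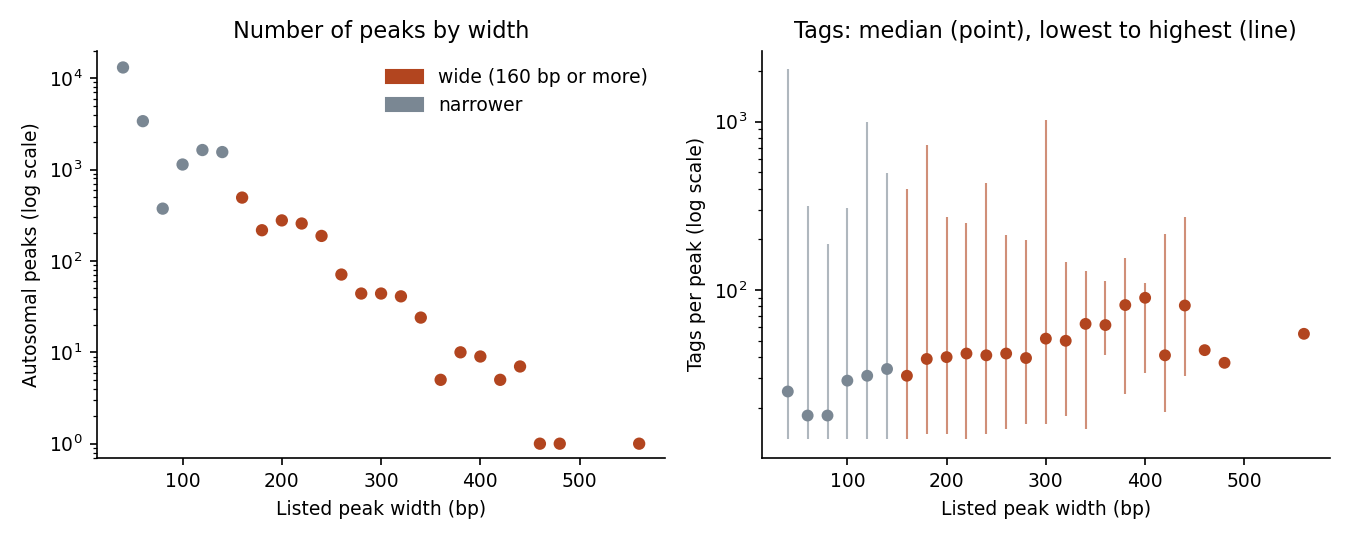
Number of autosomal peaks at each listed width (left, log scale) and the median, lowest and highest tags at that width (right, log scale). Wide peaks are in orange, and counts fall to 217 at 180 bp before rising to 278 at 200 bp.

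On either side of the threshold the medians were close. The 494 peaks at 160 bp had a median of 31 tags (quartiles 22 and 47.75) and a median fold of 22.05, and the 1556 peaks at 140 bp had a median of 34 tags (23 and 57) and a median fold of 23.06. The 160 bp limit therefore cuts through a range in which median tags and folds changed little. The upper part of the tags differed more. Peaks of 50 tags or more were 23.3% at 160 bp (19.6 to 27.3) and 31.2% at 140 bp (28.9 to 33.5). At 180 bp the median was 39 tags.

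Wide peaks held more tags than 40 bp peaks but far fewer per base pair of listed width. Their median was 39 tags (quartiles 25 and 60, lowest 13, highest 1027), against 25 tags (16 and 43, lowest 13, highest 2047) in 40 bp peaks and 25 tags in all autosomal peaks. Peaks of 13 to 16 tags, the weakest of the list, were 5.07% of wide peaks (4.07 to 6.22) and 26.8% of 40 bp peaks (26.0 to 27.6). At the other end, 9.07% of wide peaks (7.75 to 10.5) and 5.77% of 40 bp peaks (5.38 to 6.18) held 100 tags or more. Peaks of 50 tags or more were 34.5% of wide peaks (32.3 to 36.8) and 20.9% of 40 bp peaks (20.2 to 21.6). On the autosomes the highest single counts, above 1027 tags, were in peaks of 40 bp.

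Tags per base pair had a median of 0.190 in wide peaks (quartiles 0.125 and 0.291) and 0.625 in 40 bp peaks (0.4 and 1.07). The wide peak with the lowest value had 0.044 tags per bp and the one with the highest 4.03, while 40 bp peaks reached 51.2. This measure contains the width that chose the peaks. The span over which the authors counted tags is not given, and with 200 bp added to every width, an assumed allowance for fragment length, the medians were 0.0942 and 0.104 tags per bp. With that allowance the medians nearly met.

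Among the wide peaks, tags rose with width. The 711 peaks of 160 to 180 bp had a median of 33 tags, the 723 of 200 to 240 bp had 41, the 159 of 260 to 300 bp had 43 and the 104 of 320 bp or more had 53. Tags per base pair fell less steeply over the same classes, from 0.200 through 0.190 and 0.157 to 0.161. The fold rose only slightly, with medians of 23.06, 24.06, 26.44 and 27.57. By tags the last class was farthest from the 40 bp peaks, and 53.8% of its peaks held 50 tags or more (43.8 to 63.7).

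**Figure D2:**
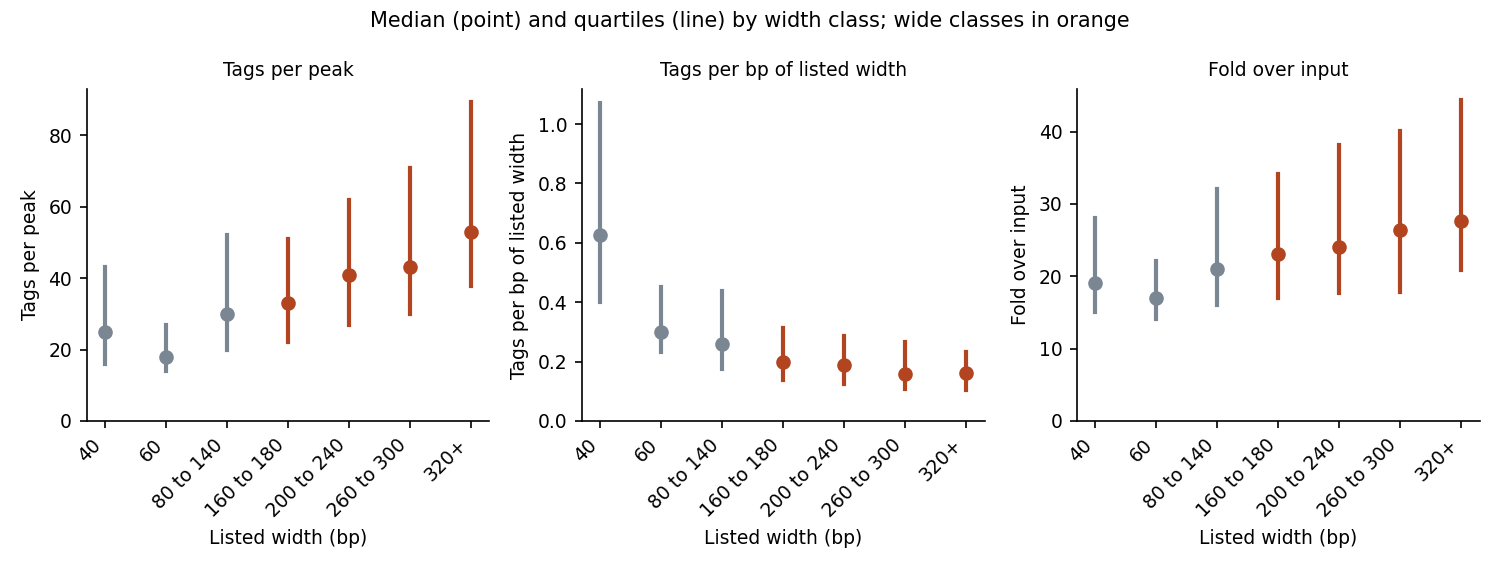
Median (point) and quartiles (line) of tags, tags per bp and fold over input in 7 classes of listed width, with wide classes in orange. Tags rise from a median of 33 to 53 across the wide classes, while tags per bp stay between 0.157 and 0.200.

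The fold over input was also higher in wide peaks. A fold of 26.06 or more, 2 times the lowest fold of the list, was found in 759 of the 1697 wide peaks (44.7%, 42.3 to 47.1), in 30% of the 40 bp peaks (29.2 to 30.8) and in 30.4% of all autosomal peaks. The median fold was 24.06 in wide peaks (quartiles 17.04 and 37.09) and 19.05 in 40 bp peaks (15.04 and 28.07). Folds of 100 and above occurred in 32 wide peaks (1.89%, 1.29 to 2.65) and 111 peaks of 40 bp (0.846%, 0.696 to 1.02). Peaks of 140 bp, just narrower, had shares of 41.8% (39.3 to 44.3) and 2.12% (1.46 to 2.97) by these same measures. The higher folds were thus not limited to the wide peaks.

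When peaks of like tag count were compared, the order of the folds turned with the tags. Among peaks of 25 to 43 tags, 52.5% of wide peaks (48.3 to 56.6) and 64.1% of 40 bp peaks (62.5 to 65.8) had a fold of 26.06 or more. Among peaks of 44 to 99 tags the shares were 63.8% (59.7 to 67.8) and 57.9% (55.9 to 59.8), and at 100 tags or more they were 64.9% (56.8 to 72.4) and 48.7% (45.1 to 52.4). Below 25 tags neither class held a peak at that fold. These classes are by listed tags. The inferred input is 1.0025 times the tags, over the fold. In 25.9% of the wide peaks of 25 to 43 tags it lay between 1 and 2, and the fold corresponded to fewer tags than listed. The share was 18.8% at 44 to 99 tags and 13% at 100 or more, and no 40 bp peak was of this kind. Wide peaks with an inferred input above 2 that was not whole are not in these shares. The classes are thus not matched on the tags behind the fold.

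In many wide peaks the listed fold did not match all the listed tags over a whole number of input tags. In peaks of 40 bp the fold was 1.0025 times the tags, divided by a whole number that was read as the input tags, for 13124 of 13124 peaks (within 0.02). In wide peaks this held for 1058 of 1697 (62.3%, 60 to 64.7). In a further 402 wide peaks (23.7%, 21.7 to 25.8) the inferred input lay between 1 and 2, which no whole number of input tags gives. In each of those 402 the fold was 1.0025 times a whole number smaller than the tags (within 0.011). The listed tags exceeded that number by a median of 8 tags (quartiles 4 and 14.75, highest 74), or 25.5% of the tags of the peak (13.4 and 37.6, highest 48.8%). All other wide peaks had an inferred input above 2 that was not whole, such as 2.29 in the widest peak.

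As examples, the peak at 12713051 to 12713491 of chromosome 7 was listed with 81 tags and a fold of 79.2, which is 79 steps of the constant. The peak at 60175111 to 60175551 of chromosome 2 was listed with 89 tags and a fold of 86.21, or 86 steps. Peaks with an inferred input between 1 and 2 were 0 of 13124 at 40 bp (up to 0.0281%) and 19.4% of 140 bp peaks (17.5 to 21.5), so they were not limited to the wide peaks. Within the wide peaks they were 19.7% of 160 to 180 bp peaks, 24.5% of 200 to 240 bp, 30.2% of 260 to 300 bp and 35.6% of 320 bp or more (26.4 to 45.6). The share was higher in each wider class, with overlapping intervals between adjacent classes. The columns have no header, and the list alone does not settle how the authors computed the fold.

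**Figure D3:**
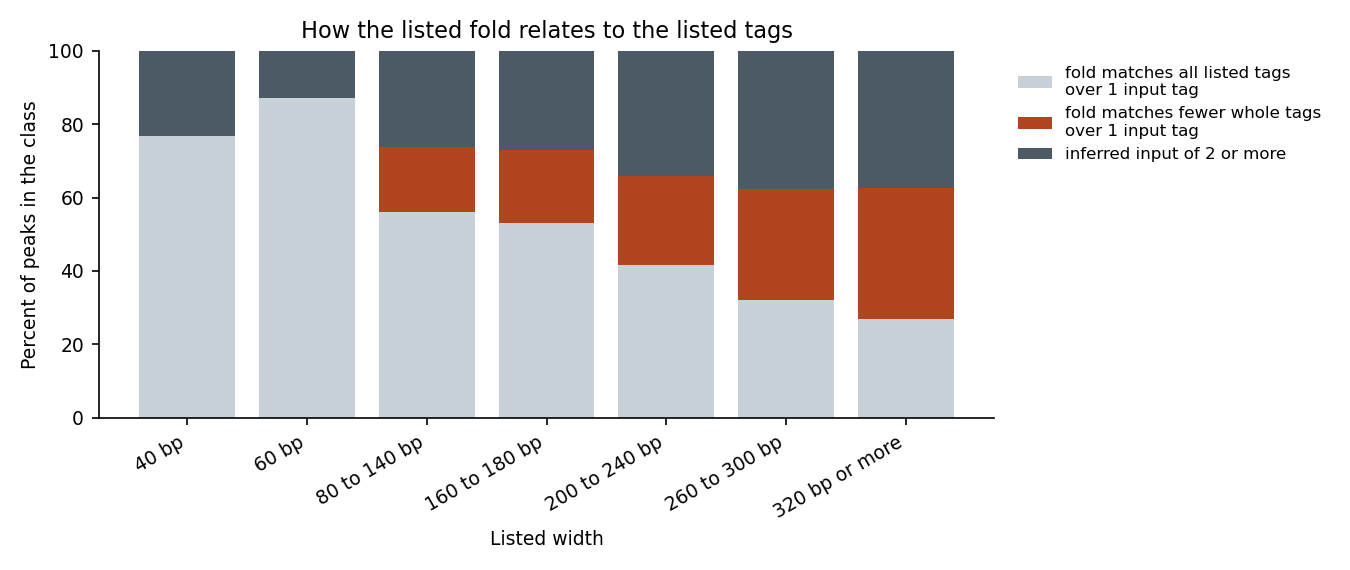
Percent of peaks in each width class whose fold matches all listed tags over 1 input tag, matches fewer whole tags over 1 input tag, or has an inferred input of 2 or more. The middle class is absent at 40 and 60 bp and reaches 35.6% at 320 bp or more. The class of 2 or more includes values that are not whole.

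The inferred input was 2 or more in 31.7% of wide peaks (29.5 to 34.0) and 23.2% of 40 bp peaks (22.4 to 23.9). In wide peaks this share and those below include values that are not whole, which cannot be counts of input tags. In 40 bp peaks every value was whole, so the 2 groups are not compared like for like. By tag class the wide peaks were not the higher ones. At 25 to 43 tags the shares were 26.8% (23.2 to 30.5) and 28.6% (27.1 to 30.2), with overlapping intervals. At 44 to 99 tags they were 49.2% (44.9 to 53.4) and 57.3% (55.3 to 59.2), and at 100 or more 71.4% (63.6 to 78.4) and 86.5% (83.9 to 88.9). An input of 5 or more was about as frequent in both, at 5.07% (4.07 to 6.22) and 5.13% (4.76 to 5.52). Whether input tags have a part in the widths was not tested.

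The 10 widest peaks ranged from rank 156 to rank 11457 by p-value and fold. The widest, 560 bp at 107649591 to 107650151 of chromosome 12, held 55 tags at a fold of 24.06 and stood at rank 8210 of the 23450 peaks by p-value and fold. Chromosome 14 carried 3 of the 10: 480 bp at 51906831 to 51907311 (37 tags, fold 37.09), 440 bp at 92579591 to 92580031 (270 tags, fold 109.27) and 440 bp at 76559051 to 76559491 (31 tags, fold 31.08). A second peak of chromosome 12, 460 bp at 550211 to 550671, held 44 tags at a fold of 22.05. The peak at 92579591 had the best rank of these 10, 156, and that at 61033751 to 61034191 of chromosome 17 the last, 11457, with 37 tags at a fold of 20.05.

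The other members at 440 bp were on chromosome 13 (98021171 to 98021611, 94 tags, fold 47.12), on chromosomes 2 and 7 as given above, and on chromosome 11 (119114951 to 119115391, 42 tags, fold 36.09). Of the 10 widest peaks, none was among the 10 wide peaks with the most tags and none among the 10 with the highest fold. The peak at 92579591 held 270 tags, against 272 in the last of the 10 with the most tags.

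The wide peaks with the most tags lay mostly on chromosome 8, which held 7 of the first 10. The first, 300 bp at 126736931 to 126737231, held 1027 tags, a fold of 60.55 and 17 inferred input tags. A second wide peak, 126737371 to 126737551, began 140 bp after its end. It held 538 tags at a fold of 29.96 with 18 inferred input tags. The peak at 126850051 to 126850231 held 726 tags at a fold of only 18.66, with an inferred input of 39, and stood at rank 12576. At 128117291 to 128117471, 704 tags met an inferred input of 7, which gave a fold of 100.82. These 4 peaks of one chromosome arm, the long arm of chromosome 8 that also carries the MYC oncogene, had high inferred input as well as high tags, and their order by tags was not their order by fold.

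Outside chromosome 8 the list of most tags held 462 tags at 53753351 to 53753531 of chromosome 19 (fold 25.73), 400 tags at 35432991 to 35433151 of chromosome 21 (fold 80.2) and 372 tags at 47645831 to 47646011 of chromosome 20 (fold 16.66). The remaining members on chromosome 8 were 129209311 to 129209551 (434 tags), 128733631 to 128733931 (377 tags, fold 62.99) and 37522191 to 37522391 (272 tags, fold 24.79). For 9 of these 10 peaks the inferred input was 2 or more, though in the peak of chromosome 20 it was 22.4, which is not whole.

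By fold, a wide peak led the whole list. The peak at 129209311 to 129209551 of chromosome 8 was 240 bp wide and had a fold of 435.08 at the lowest inferred input, 1. It was followed by 28102131 to 28102351 of chromosome 12 (205 tags, fold 205.51) and 36361111 to 36361351 of chromosome 17 (189 tags, fold 189.47), and these 3 were the wide peaks with a p-value listed as 0. The next were 128300671 to 128300951 of chromosome 8 (fold 165.41), 211910371 to 211910611 of chromosome 1 (fold 157.39) and 11635511 to 11635691 of chromosome 3 (fold 152.38). Chromosome 20 gave 34138271 to 34138431 (fold 141.35) and 43841591 to 43841811 (fold 128.32), chromosome 16 gave 27192791 to 27193011 (fold 135.34) and chromosome 2 gave 80410171 to 80410371 (fold 129.32). Among the 100 autosomal peaks of highest fold, 13 were wide and 51 were 40 bp, and among the 100 with the most tags 14 were wide and 61 were 40 bp. Over all autosomal peaks, 7.41% were wide and 57.3% were 40 bp.

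At the weak end, 10 wide peaks held 13 tags, the lowest count of the list. The first 5 of them by width were at 126625171 to 126625391 of chromosome 8 (220 bp), 144146531 to 144146691 of chromosome 1, 71307751 to 71307911 of chromosome 2, 74697811 to 74697971 of chromosome 4 and 168523911 to 168524071 of chromosome 5 (160 bp each), and each had the lowest fold, 13.03. A large width thus also occurred at the lowest tag count. The share of peaks that were wide was 1.51% at 13 to 16 tags (1.21 to 1.86), 5.93% at 17 to 24, 9.74% at 25 to 43, 12.2% at 44 to 99 (11.2 to 13.2) and 12% at 100 or more (10.3 to 13.9). It rose with tags up to 44 and was level above.

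Wide peaks were found on every autosome, in shares between 5.52% and 9.23% of the peaks of the chromosome. The 3 highest shares were on chromosome 19 (47 of 509, 9.23%, 6.86 to 12.1), chromosome 20 (72 of 782, 9.21%, 7.27 to 11.5) and chromosome 22 (36 of 411, 8.76%, 6.21 to 11.9). The 3 lowest were on chromosome 9 (55 of 866, 6.35%, 4.82 to 8.19), chromosome 18 (34 of 577, 5.89%, 4.11 to 8.14) and chromosome 4 (44 of 797, 5.52%, 4.04 to 7.34). Neighbouring chromosomes in this order did not differ beyond their intervals, and only chromosome 4 had an interval that left out the autosomal share of 7.41%. Among 22 separate 95% intervals some can leave it out by counting error alone, and differences between chromosomes were not tested. Chromosome 1 held the most wide peaks, 180, which is 10.6% of them, and 9.87% of all autosomal peaks.

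**Figure D4:**
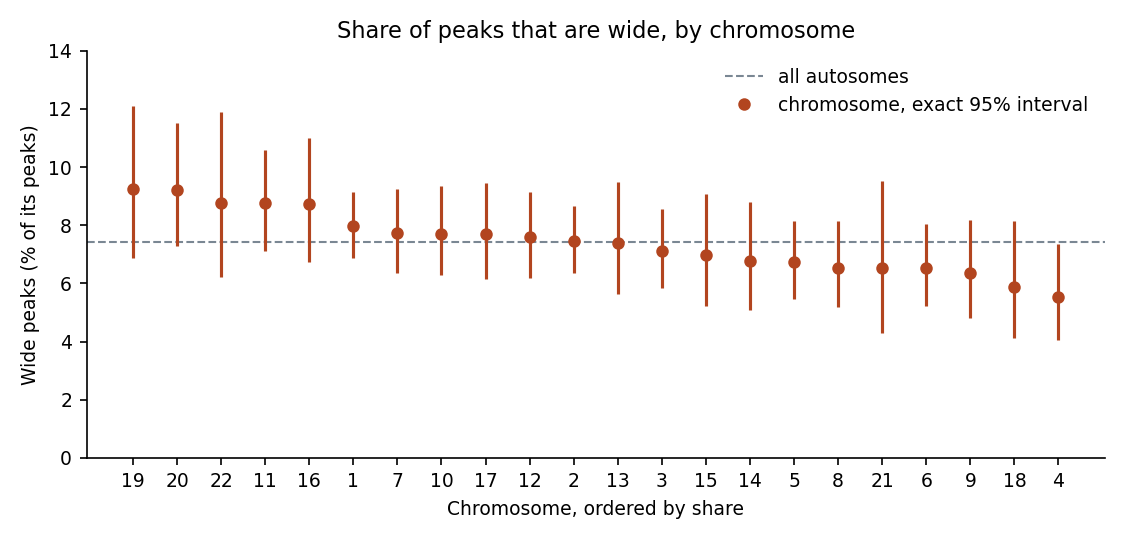
Share of the peaks of each chromosome that are wide, with exact 95% intervals, ordered from highest to lowest; the dashed line is the share of all autosomes, 7.41%. The intervals of neighbouring chromosomes overlap throughout, and that of chromosome 4 ends at 7.34%.

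Chromosomes also differed in tags, and wide peaks were more frequent among peaks with more tags. The median peak had 32 tags on chromosome 20, 28 on chromosome 19 and 21 on chromosome 4. Among peaks of 25 tags or more, wide peaks were 12.9% on chromosome 19 (9.24 to 17.3), 12.6% on chromosome 20 (9.74 to 15.9), 8.28% on chromosome 4 (5.53 to 11.8) and 7.56% on chromosome 8 (5.43 to 10.2), against 10.9% over all autosomes (10.4 to 11.5). Chromosome 8 was lowest by this count, and the interval of chromosome 4 then included the autosomal share. The highest was chromosome 11, at 14.1% (11.2 to 17.3). The intervals of chromosomes 8 and 11 left out the autosomal share, with the same limit as for chromosome 4 above.

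Wide peaks of chromosome 8 had the lowest median tag count of any autosome, although this chromosome held most of the wide peaks of highest tags. Its 75 wide peaks had a median of 26 tags, and 22.7% of them had a fold of 26.06 or more. Low tags were not particular to its wide peaks. Over all peaks of chromosome 8 the median was 22 tags, the lowest after chromosome 4 (21). The share of all its peaks at that fold was not computed. On the other autosomes the median lay between 32 (chromosome 4) and 55 tags (chromosome 21), and the share at that fold between 31.9% (chromosome 19) and 56.0% (chromosome 15). The densest stretch of the list, 126 to 130 Mb of chromosome 8, held 23 wide peaks among 281 (8.19%, 5.26 to 12), with a median of 20 tags and 6 at that fold. The other 52 wide peaks of the chromosome were 6% of its 866 remaining peaks, with a median of 27.5 tags and 11 at that fold. Low values were thus found both inside and outside the stretch.

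Wide peaks were found in many windows of the genome. No like count was made for 40 bp peaks, so these counts do not show whether wide peaks were more spread or more gathered than others. Of 2321 windows of 1 Mb that held a peak, 979 (42.2%) held a wide one, 565 of them exactly 1, and 32 windows held 5 or more. The windows with the most were 128 to 129 Mb of chromosome 8 (9 of 121 peaks), 129 to 130 Mb of chromosome 8 (8 of 72) and 30 to 31 Mb of chromosome 6 (8 of 36). In the chromosome 6 window 22.2% of peaks were wide, against 7.44% in the first. The next were 35 to 36 Mb of chromosome 21 (7 of 71) and 60 to 61 Mb of chromosome 17 (7 of 56). These windows were chosen after their values were seen.

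Slightly more wide peaks than 40 bp peaks had another listed peak close by, but the direction changed with the distance, the tags and the rank of the peaks. Another peak of any width lay within 10 kb, edge to edge, of 1034 of the 1697 wide peaks (60.9%, 58.6 to 63.3), of 57.1% of 40 bp peaks (56.3 to 58.0) and of 56.7% of all autosomal peaks. The difference between wide and 40 bp peaks was 3.8 percentage points (1.28 to 6.28). Among the autosomal peaks of the 11725 best-ranked, the shares were 46.4% and 47.9%, a difference of -1.47 points (-4.65 to 1.72). Only neighbours in that same, thinner set were counted, so these shares cannot be set beside 60.9% and 57.1%. Over all autosomal peaks, with peaks within 1 kb counted once, the difference was 9.14 points (6.54 to 11.8). There a joined place took the width of its widest peak, so any place with a wide peak counted as wide. That rule itself changes which places are compared, so this value cannot be set beside the 3.8 points. Within 1 kb the shares were 33.0% (30.8 to 35.3) and 34.3% (33.5 to 35.2), a difference of -1.35 points (-3.73 to 1.08). Within 50 kb they were 84.8% (83.0 to 86.5) and 80% (79.3 to 80.7). The widest class, 320 bp or more, had a neighbour within 10 kb in 75% of its peaks (65.6 to 83.0).

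Peaks with more tags had more neighbours in both classes. When the 40 bp peaks were weighted to the tag classes of the wide ones, their share with a neighbour within 10 kb was 62.1%, and the difference turned to -1.20 points. Within 1 kb it was then -6.40 points. No interval was computed for these weighted differences. In the class of 44 to 99 tags, 35.4% of wide peaks (31.5 to 39.6) and 46.5% of 40 bp peaks (44.5 to 48.5) had a neighbour within 1 kb, a difference of -11 points (-15.5 to -6.46). At 25 to 43 tags it was -6.13 points (-10.2 to -1.90), and in the other 3 classes the interval of the difference included 0. At like tags, then, wide peaks had fewer very close neighbours than 40 bp peaks in these 2 classes.

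**Figure D5:**
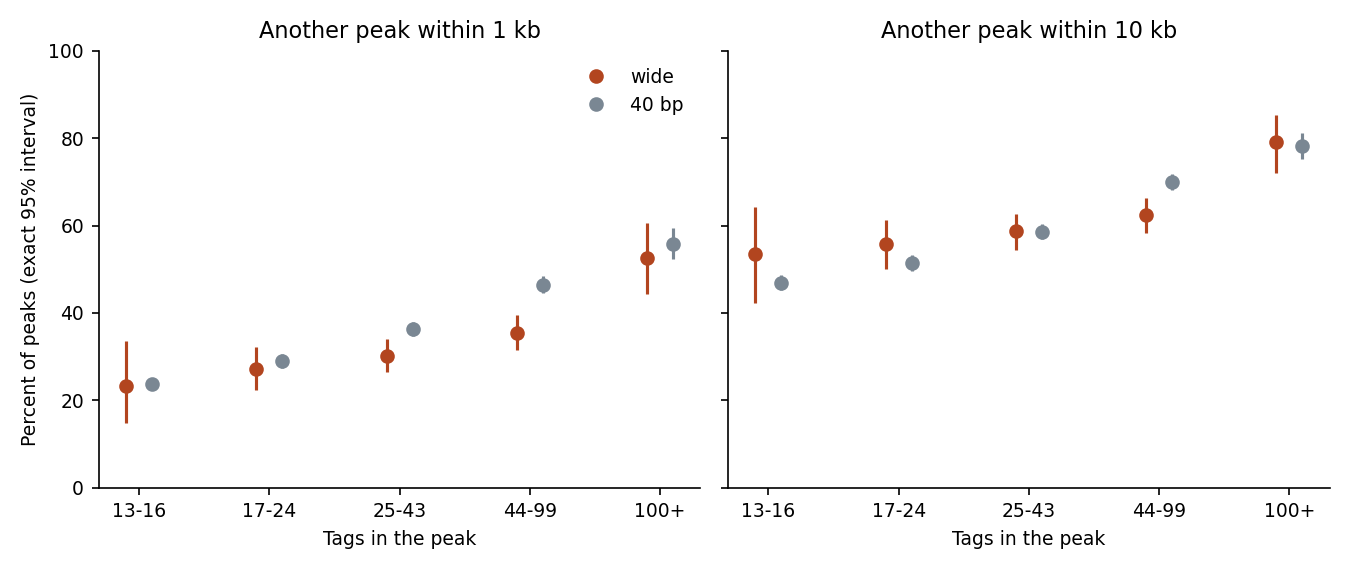
Percent of wide (orange) and 40 bp (grey) peaks with another listed peak within 1 kb (left) and 10 kb (right), by tags in the peak, with exact 95% intervals. At 44 to 99 tags the wide peaks are lower in both panels, by 11 points within 1 kb.

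The smallest gap to a neighbour was 60 bp for both wide and 40 bp peaks and 40 bp over all autosomal peaks. In the classes of gap, 8.19% of wide peaks (6.93 to 9.60) and 10.8% of 40 bp peaks (10.3 to 11.4) had their nearest neighbour 60 to 100 bp away. Whether the caller joined closer signals into wider peaks was not tested. Among peaks with a neighbour within 10 kb, the median gap was 750 bp for wide peaks (quartiles 180 and 3155) and 460 bp for 40 bp peaks (140 and 2680).

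The nearest neighbour within 10 kb was itself wide for 8.80% of the 1034 wide peaks that had one (7.14 to 10.7), for 7.48% of such 40 bp peaks (6.90 to 8.10) and for 7.59% of such autosomal peaks of any width (7.14 to 8.06). Among peaks with a neighbour within 1 kb the shares were 9.82% (7.48 to 12.6), 7.03% (6.30 to 7.82) and 7.15% (6.58 to 7.75). The difference between these shares was not tested. Adjacent wide peaks within 10 kb formed 60 pairs, of which 30 lay within 1 kb. The 3 closest pairs each had a gap of 80 bp. They lay on chromosome 5 (133382211 to 133382391 with 91 tags and 133382471 to 133382631 with 24), chromosome 8 (129097851 to 129098011 with 19 and 129098091 to 129098291 with 80) and chromosome 13 (27437991 to 27438251 with 111 and 27438331 to 27438531 with 32). In each pair one peak held far more tags than the other. On chromosome 8 the peak with more tags had the lower fold, 13.37 against 19.05, while in the other pairs it had the higher fold.

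Set against its own neighbourhood, a wide peak in most cases held more tags than an adjacent 40 bp peak. In 781 adjacent pairs of a wide and a 40 bp peak within 10 kb, the wide peak held more tags in 495 (63.4%), fewer in 276 and as many in 10, with medians of 42 and 29 tags. It had the higher fold in 60.9% of these pairs. For the 373 pairs within 1 kb the wide peak held more tags in 66%, and for the 408 pairs farther apart in 61.0%. Some peaks stand in 2 pairs, so the pairs are not independent.

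Runs, in which peaks follow each other with gaps of at most 10 kb, held 60.9% of the wide peaks. The share of peaks that were wide was 6.68% among peaks that stood alone (6.20 to 7.19), 7.46% in runs of 2 (6.76 to 8.21), 8.21% in runs of 3 to 4 (7.44 to 9.04), 8.08% in runs of 5 to 9 (7.06 to 9.19) and 9.93% in the 42 runs of 10 or more (7.55 to 12.8). The median tags of wide peaks were 35 alone, 37, 43, 46 and 41.5 in the same order, and those of 40 bp peaks 21, 26, 29, 31 and 31. Wide peaks held more tags in the middle of the range than 40 bp peaks in each size of run. In the 888 runs that mixed wide and narrower peaks, a wide peak alone held the most tags in 450 (50.7%). These runs differ in size and no reference share was computed, so 50.7% cannot be read as high or low.

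Runs with several wide peaks were few. Of 4485 runs of 2 or more peaks, 907 held a wide peak, 114 held 2 or more and 13 held 3, the highest number; 19 were made of wide peaks alone. The 5 first of those with 3 were on chromosome 8 (128295451 to 128365591, 41 peaks), again on chromosome 8 (129634751 to 129685791, 29 peaks), on chromosome 21 (35221171 to 35281811, 22 peaks), on chromosome 20 (43833251 to 43845311, 10 peaks) and on chromosome 14 (54638871 to 54666891, 9 peaks). The wide peaks held 6.17% of the tags of the first run, 2.03% of the second, 16.1% of the third, 31.6% of the fourth and 26.3% of the fifth.

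The wide peaks of these 5 runs were unlike each other. In the first run they held 165, 81 and 16 tags, at folds of 165.41, 25.06 and 14.03. In the second, 20, 16 and 19 tags gave folds of 13.03, 16.04 and 18.04. On chromosome 21 the 3 members were even, with 74, 90 and 80 tags at folds of 18.04, 21.55 and 20.05. On chromosome 20 one member, at 43841591 to 43841811, held 128 tags at a fold of 128.32 while the other wide peaks of the run held 19 and 44 tags. On chromosome 14 the values were 64, 36 and 31 tags at folds of 16.04, 36.09 and 31.08, so that the peak with the most tags had the lowest fold.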

How the data were processed

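The authors deposited 1 peak list without a header for PROX1 ChIP against input DNA in SW480R cells, on hg18 per the submitters' processing notes. The sources used here do not give the aligner, the peak caller, its threshold or the full depth of either library. Column meanings were read from the values. Tags are the deposited counts per peak, not normalized, from 13 upward. The deposited fold is a ratio of ChIP to input, and the deposited p-value (highest 0.00099) cannot be told from a q-value. Per the labels' protocols 5 µg of antibody was used and 10 ng of DNA went into a library.

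Peaks were classed by width. The inferred input is 1.0025 times the tags, over the fold. That constant is the fold per tag of 40 bp peaks above 100 tags with the least input. Neighbours and runs were measured between edges. Tag classes began at 13, 17, 25, 44 and 100. Regions named were the 10 widest, the 10 with most tags, the 10 of highest fold, the 5 with fewest tags, the 5 runs with most wide peaks, the 3 closest pairs and the 3 chromosomes at each end. The other regions and examples were chosen after their values were seen. Members and lists were chosen with earlier results of these data known. Reads without molecular identifiers are not independent molecules. Python 3.11.15, numpy 2.4.6, pandas 2.3.3, scipy 1.17.1 and matplotlib 3.10.9 were used. The neighbour, run and input code was tested on simulated data, where 100% of peaks were recovered in 20 lists. The simulated folds used all listed tags over a whole number of input tags at every width. The test therefore does not cover the inferred input of wide peaks whose fold did not match in that way. Alternatives were other width limits, the autosomal peaks of the better-ranked 11725, other distances and strengths, and leaving out the peaks of most tags or the densest stretch.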

Additional observations from a re-analysis of the deposited data

Results flagged for a closer look

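Wide peaks outside the autosomes were a signal in data that the comparisons did not use. On the mitochondrial genome 9 of 33 peaks were 160 bp or wider (27.3%, interval 13.3 to 45.5), with 78 to 5495 tags and a median of 307. On chromosome X the share was 7.80% (39 of 500, 5.61 to 10.5), with a median of 26 tags and at most 63, close to the 7.41% of the autosomes. Differences between these shares were not tested.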

How the results depend on the processing

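Of 116 alternative values of 16 results, 59 stayed within the interval of the reported value (counts: within 1.5 times), 54 moved and 3 turned in direction. Many moves follow from the definition. Some of the 59 could not change, such as the 40 bp values under another wide limit. The same holds for chromosomes 19 and 4 without the densest stretch, which lies on chromosome 8. With wide from 140 bp there were 3253 wide peaks, with a median of 36 tags, 0.212 tags per bp, shares of 14.2% of the autosomes, 17.3% of chromosome 19 and 11.7% of chromosome 4, and 309 runs with 2 or more of them. From 180 bp the median was 41 tags, 47.7% were strong (a fold of 26.06 or more), they were 5.25% of the autosomes and 2.89% of chromosome 4, and 62 runs held 2 or more. In the autosomal peaks of the 11725 ranked best by p-value and fold, wide and 40 bp peaks had medians of 44 and 34 tags. Their medians per bp were 0.214 and 0.850 tags, and 66.7% and 61.0% were strong. A neighbour within 10 kb was found for 46.4% and 47.9% (difference -1.47 points, turned), and 6.68% and 7.13% lay in runs of 5 or more. Neighbours and runs were counted within that thinner set alone. There wide peaks were 9.91% of the autosomes and 12.5% of chromosome 19, and 58 runs held 2 or more.

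Without the 1% of peaks with the most tags, 13.2% of 40 bp peaks lay in runs of 5 or more, counted among the remaining peaks. Leaving out the densest stretch moved no result. Over the width plus 200 bp, tags per bp were 0.0942 and 0.104. Strong from 1.5 times the lowest fold gave 66.4% and 48.6%, and from 3 times 22.9% and 13.3%. With peaks within 1 kb counted once, each joined place took the width of its widest peak, which places joined peaks in the wide class. Wide places were then 8.93% of the autosomal places, and 45.5% of them and 36.4% of 40 bp places had a neighbour (difference 9.14 points). Neighbours within 1 kb were found for 33.0% and 34.3% (difference -1.35, turned), within 5 kb for 51.7% and 49.0%, and within 50 kb for 84.8% and 80%. Runs of 5 or more held 1.24% and 1.37% when joined within 1 kb (37 runs with 2 or more wide peaks), 9.02% and 8.18% within 5 kb, and 51.5% and 43.6% within 50 kb (246 runs). Added after the values were seen, peaks of 25 tags or more gave 10.9% for the autosomes, 12.9% for chromosome 19 and 8.28% for chromosome 4, and weighting by tag class gave 62.1% for 40 bp peaks (difference -1.20, turned). Of the turned differences, those within 1 kb and among the best-ranked peaks had intervals that included 0, and the weighted one had none. The cause of the turns was not tested. The full depth of the libraries is unknown, so nothing can be said of places where no peak is listed.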
